A study of Mus musculus with 16 samples.

Results

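The early response to hyperosmotic stress was examined in wild-type (WT) mIMCD3 cells, an established mouse line of the inner medullary collecting duct, that had first been given SFN (sulforaphane), an activator of Nrf2. The titles and source labels name this line, while the extraction text of the same labels speaks of primary TEC, a conflict they do not settle. The comparison used 4 of the 16 RNA-seq libraries of the study. In 2 isosmotic libraries, WT cells had been treated with 10 µM SFN for 5 h, and in 2 stressed libraries the same treatment was followed by replacement of the medium with hypertonic medium of 600 mOsm for 1 h. All 4 libraries therefore carry SFN, and no library of this comparison is untreated. The stressed cells differed from the isosmotic cells in osmolality, in the additional hour and in the change of medium, and these cannot be told apart here. For comparison, WT cells given the solvent DMSO for 5 h (2 isosmotic libraries and 2 after 1 h at 600 mOsm), Nrf2-/- mIMCD3 cells given 10 µM SFN for 5 h (2 and 2), and WT cells given SFN and then kept at 600 mOsm for 6 h (2 libraries) were used. The Nrf2-/- line was made with lentiviral CRISPR and drug selection, and whether it is 1 clone is not given in the sources used here. None of its libraries is without SFN, and genotype and line cannot be told apart here. Members of the comparison were all 19509 of 55367 gene symbols that passed a filter on low counts across the 16 libraries.

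Hypertonic medium draws water out of cells, which raises the concentration of ions inside them. Cells of the renal inner medulla meet this in life and answer it over hours, largely through the transcription factor NFAT5, by importing or making small organic osmolytes such as sorbitol, myo-inositol, betaine and taurine. Within the first hour, stress kinases and immediate-early genes act, and global processes such as splicing, transcription termination and RNA decay can be disturbed. Nrf2 is a transcription factor that Keap1 normally targets for degradation. SFN modifies Keap1, and Nrf2 then raises genes of glutathione synthesis, thioredoxin and NADPH production.

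The isosmotic libraries held 34941937 and 50774875 counts and the stressed ones 36742603 and 38553725. The isosmotic pair varied more than the stressed pair, with a biological coefficient of variation of 0.128 against 0.0393. In isosmotic replicate 1, transcripts under 1 kb were higher than in replicate 2 (median log2 ratio 0.26 over 234 genes of at least 10 CPM), and in the stressed pair this ratio was -0.0040. Of these short transcripts, 2 were called higher and 1 lower at 1 h. CPM here are counts per 1000000 after TMM scaling, without correction for gene length. Of 15 tested markers of epithelium and collecting duct, 4 rose at 1 h, Krt7 (log2 fold change 0.79), Cdh1 (0.68), Hoxb7 (0.62) and Cldn4 (0.49). By DESeq2 10 of the 15 were higher, and 10 had an unadjusted p under 0.05 in edgeR. Over all 19509 tested genes, these numbers were 1529 and 2508. Before stress, 7 of the 15 were lower with SFN than with DMSO, against 1.76% of all tested genes. The summed level of this list was 2631 and 2395 CPM isosmotic and 3257 and 3245 CPM at 1 h, and Aqp2, the water channel that defines principal cells, had no count in any of the 4 libraries. Summed markers of proximal tubule (10.96 to 14.2 CPM), fibroblasts (2.45 to 5.08), endothelium (11.3 to 15.6) and leukocytes (11.1 to 15.6) stayed low in all 4 libraries. Among these, Slc5a2, Pdgfrb and Pecam1 were called higher from at most 6 counts in an isosmotic library, Col1a1 was called lower, and no leukocyte marker of 6 was called (2 had an unadjusted p under 0.05, and DESeq2 called 1). In bulk RNA, fewer cells of a type and less RNA per cell cannot be told apart.

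After 1 h of stress, 1158 genes were higher (5.94% of those tested) and 699 were lower (3.58%) by edgeR's quasi-likelihood test with Benjamini-Hochberg adjusted p under 0.05. For each of these 1857 genes, both stressed libraries lay on one side of both isosmotic ones. The calls compare these same libraries, so this separation adds no support to them. The rises were mostly of genes that had been almost silent. Of the 1158 higher genes, 925 (79.9%) had a mean under 1 CPM in the isosmotic libraries, and 443 had no count at all in either of them. The falls were mostly of expressed genes, since 573 of 699 began at 1 CPM or more. Genes near 0 counts before stress entered the test through other libraries and had no room to fall. This division was therefore partly fixed beforehand. A rise of at least 2-fold was seen in 976 of the higher genes (84.3%) and a fall of at least 2-fold in 437 of the lower ones (62.5%). The counts depended on the libraries in the fit. Without any 1 of the 4 libraries, 438 to 617 genes were higher and 285 to 412 lower. The 2 Nrf2-/- libraries at 1 h, which varied most (coefficient of variation 0.348), entered the shared estimate of the spread, and a fit of only the 12 WT libraries gave 2218 higher and 1310 lower genes. Of 88 called genes described here, 38 lost the call without at least 1 of the 4 libraries, in no case with a change of sign.

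The balance of rises and falls followed the level before stress. Among 2896 genes under 0.1 CPM, 721 (24.9%) were higher and 0 lower, but such genes have no room to fall and entered the test through their counts in other libraries. Between 0.1 and 1 CPM, 204 of 4248 genes (4.80%) were higher and 126 (2.97%) lower. Between 1 and 10 CPM, falls outnumbered rises, with 89 of 3272 genes (2.72%) higher and 279 (8.53%) lower. Between 10 and 100 CPM, 111 of 6620 (1.68%) were higher and 256 (3.87%) lower, and above 100 CPM, 33 of 2473 (1.33%) were higher and 38 (1.54%) lower. Among genes with at least 10 counts in every library of the study, 230 rose and 305 fell. The median log2 fold change of all tested genes was 0.02.

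**Figure D1:**
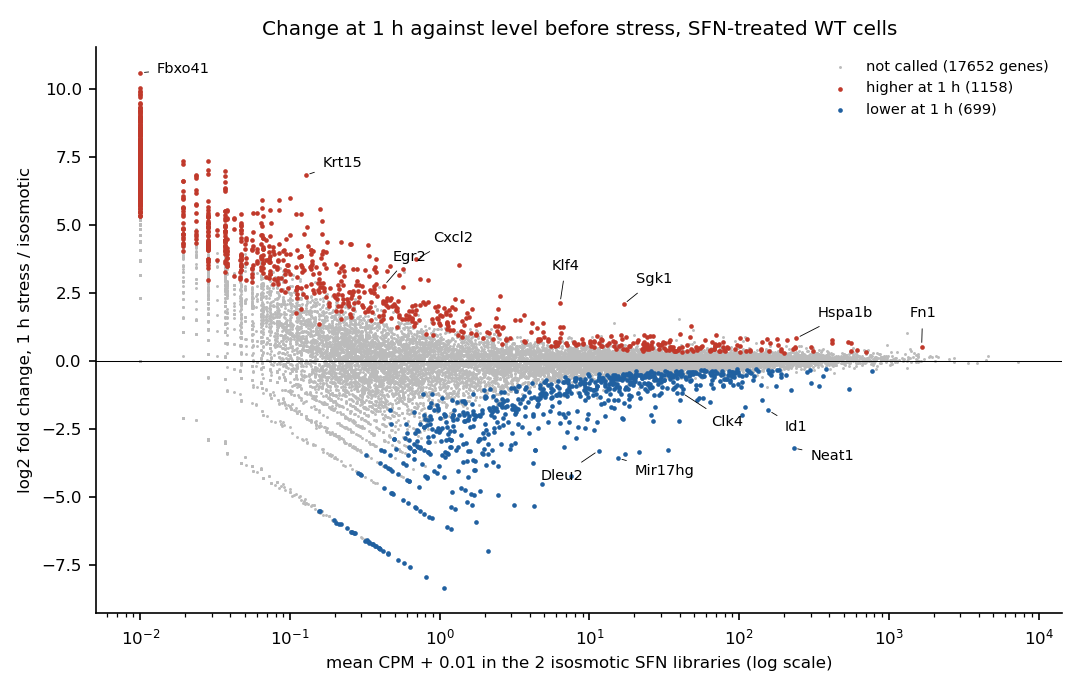
Log2 fold change at 1 h (y axis) against the mean CPM in the 2 isosmotic SFN libraries plus 0.01 (x axis, log scale), with 1 point per tested gene, red for the 1158 genes called higher and blue for the 699 called lower. Red points crowd at the left edge, where isosmotic counts are 0 or nearly so and the fitted fold change depends on the prior count, and blue points lie mostly between 1 and 100 CPM.

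A count that used no filter and no test also described the near-silent genes. Of 35802 gene symbols with at most 3 counts in both isosmotic SFN libraries, 543 reached at least 10 counts in both stressed libraries. In the opposite direction, 128 of 34034 symbols with at most 3 counts in both stressed libraries had held at least 10 in both isosmotic ones. With DMSO the numbers were 690 of 35865 gained and 100 of 33515 lost, and in Nrf2-/- cells with SFN 507 of 36550 gained and 73 of 33999 lost.

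The share of near-silent genes that gained counts was taken by distance from expressed genes. Distance was taken from the gene's start back to the end of the nearest gene of at least 1 CPM on the same strand, with positions from GENCODE M21 (GRCm38). Of near-silent genes that began within 1 kb past such an end, 12 of 68 (17.6%) gained counts, and the share was 37 of 360 (10.3%) at 1 to 5 kb and 54 of 442 (12.2%) at 5 to 10 kb. It was 215 of 2983 (7.21%) at 10 to 50 kb, 57 of 2532 (2.25%) at 50 to 100 kb and 145 of 25525 (0.568%) beyond 100 kb. For near-silent genes that start inside an expressed gene, the share was 8 of 2417 (0.331%). Genes under 1 CPM before stress could enter the test through libraries where they were high, the stressed ones included. Among tested genes under 1 CPM, the share called higher by edgeR had another shape, and the nearest bin was not the highest. It was 12.2% within 1 kb, 85 of 425 genes at 1 to 5 kb, 22.6% at 5 to 10 kb, 22.4% at 10 to 50 kb, 10.9% at 50 to 100 kb and 8.35% beyond 100 kb. Whether counting used strand is not given in the sources used here, so reads that run on from a neighbour and reads from the gene's own start cannot be told apart.

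**Figure D2:**
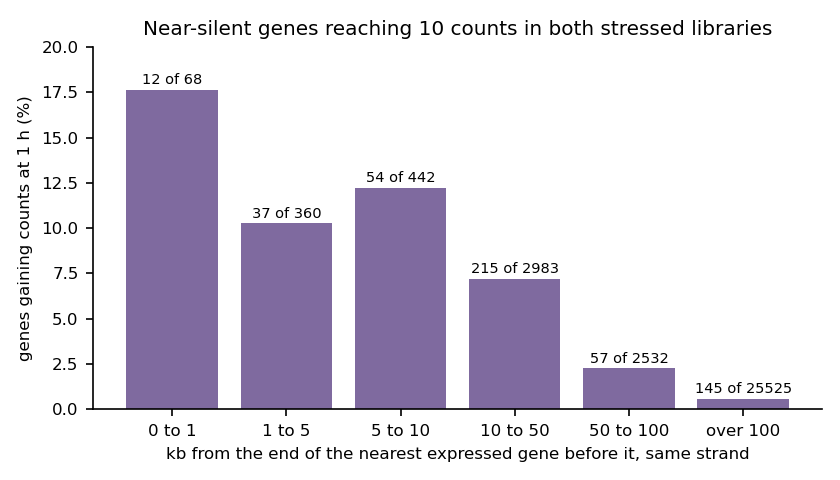
Percent of near-silent genes (at most 3 counts in both isosmotic SFN libraries) that reached at least 10 counts in both stressed SFN libraries (y axis), by distance from the end of the nearest expressed gene before them on the same strand (x axis, kb), with the numbers of genes above the bars. The share was 17.6% in the nearest bin and 0.568% beyond 100 kb.

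The 15 largest rises among called genes with a mean of at least 50 counts included genes known from liver, brain, muscle and the vomeronasal organ, and keratin genes. Fbxo41 (chr6:85469574-85502994), which encodes an F-box protein, had 0 and 0 counts in the isosmotic libraries and 171 and 220 in the stressed ones, at least 75.9-fold higher against a floor of 3 counts in each isosmotic library. Tat, the tyrosine aminotransferase of liver, went from 0 and 0 to 123 and 143 counts, at least 51.6-fold higher. Pipox, a peroxisomal sarcosine oxidase, went from 0 and 0 to 95 and 113 counts, at least 40.4-fold higher. All 3 were silent before stress and clearly counted in both stressed libraries. The start of Fbxo41 was 396057 bp from the nearest expressed gene before it, that of Tat 45766 bp and that of Pipox 179280 bp. Vmn2r83, a vomeronasal receptor gene, Fer1l4, Gm34455 and Atcayos rose from 0 counts by at least 47.5-fold, 46.8-fold, 42.7-fold and 43.9-fold, and Atcayos starts 1412 bp past the end of Dapk3. The remaining genes among the 15 largest rises were Gm8703, Kif28, 1700016G22Rik and Gm38100, besides the keratins and Myh3 described next.

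Keratins are the intermediate filament proteins of epithelia. Krt15 (chr11:100131758-100135928), a keratin of basal cells, had 6 and 4 isosmotic counts and 434 and 573 stressed counts, a log2 fold change of 6.82 ± 0.38 (SE, adjusted p = 2.96e-07). Its start lies 4882 bp past the end of the expressed Krt19, and Krt13 starts 19244 bp past the same gene. Krt13 went from 0 and 2 to 180 and 132 counts, a ratio of 182 (95% interval 49.9 to 1507) from the counts, and Krt78, 42411 bp past Krt8, from 0 and 2 to 96 and 153, a ratio of 145 (95% interval 39.7 to 1204). Such intervals cover counting error only, and they are too narrow if counts are not independent. Myh3, the embryonic myosin heavy chain, went from 2 and 0 to 124 and 123 counts, a ratio of 144 (95% interval 39.4 to 1194), and starts 11230 bp past Sco1. In each of these 4 genes both stressed libraries were far above both isosmotic ones. At 6 h with SFN, Krt15 stood at 1.67 and 1.68 CPM against 11.3 and 14.3 at 1 h, and the log2 difference between 6 h and 1 h was -2.93 (adjusted p = 1.06e-06, in a contrast that called 42.6% of all genes). Fbxo41 (log2 difference -2.42, adjusted p = 0.000104) and Tat (-2.28, adjusted p = 0.000207) were also lower at 6 h than at 1 h, whereas Myh3 did not pass (-0.19, adjusted p = 0.718).

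Among the 9093 genes of at least 10 CPM before stress, 144 rose and 294 fell. The examples in this paragraph that belong to no list, Rnd3, Hexim1, Ppbp, Kcnk1 and Tnc, were chosen after their values were seen. Sgk1 (chr10:21882184-21999903), the serum- and glucocorticoid-regulated kinase that stimulates sodium transport, stood at 15.2 and 18.7 CPM isosmotic and 70.8 and 72.1 CPM stressed, 4.21-fold higher (log2 fold change 2.07 ± 0.22, adjusted p = 5.6e-05). Klf4 (chr4:55527143-55532466), a zinc finger transcription factor of epithelial differentiation that began below 10 CPM, went from 6.70 and 6.00 to 27.3 and 27.6 CPM, 4.33-fold higher (log2 2.11 ± 0.15, adjusted p = 2.31e-06). Rnd3, an atypical small GTPase that opposes stress fibres, went from 47.5 and 48.3 to 116 and 118 CPM (log2 1.29 ± 0.11, adjusted p = 4.97e-06). For all 3 the stressed pair agreed closely and lay well above both isosmotic libraries. Smaller rises were those of Ppbp, a platelet chemokine (log2 0.97), Hexim1, an inhibitor of the elongation kinase P-TEFb (0.95), Kcnk1, a potassium leak channel (0.88), and Tnc, the matrix protein tenascin C (0.88). Of the genes called, the 5 with the highest CPM at 1 h all rose. They were the matrix protein gene Fn1, with 1594 and 1719.7 and then 2374 and 2357 CPM (log2 0.51 ± 0.11, adjusted p = 0.00978), the polo-like kinase gene Plk2 (0.66 ± 0.09, adjusted p = 0.000425), the matrix gene Thbs1 (0.67 ± 0.10), the actin-binding Cald1 (0.38 ± 0.10) and the catenin gene Ctnna1 (0.30 ± 0.09), whose call did not hold under other scalings or filters.

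**Figure D3:**
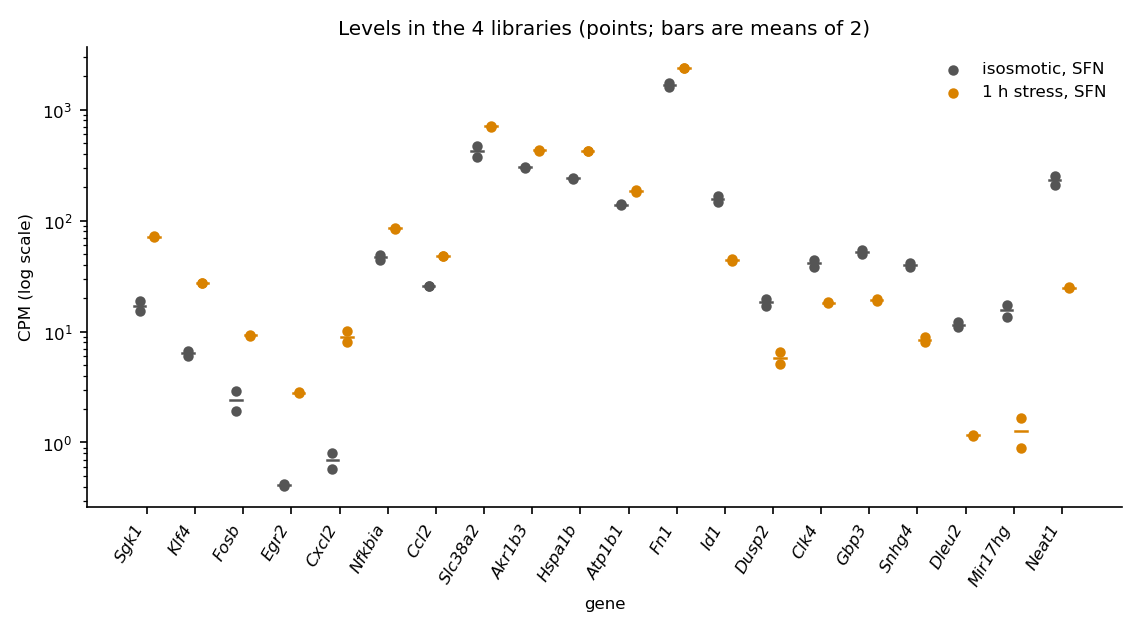
CPM (y axis, log scale) of 20 genes in the 2 isosmotic (grey) and 2 stressed (orange) SFN libraries of WT cells, with bars at the mean of 2. The first 12 genes rose and the last 8 fell, and in none of them do the 2 groups overlap.

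Immediate-early genes, which are induced within minutes of a stimulus without new protein, moved in both directions. The list holds mainly transcription factors, with some other genes such as Arc, Btg2 and Zfp36. Of 34 tested, 8 rose and 4 fell, with a median log2 fold change of 0.03 against 0.02 over all genes. The counts of this and the following lists stand beside 5.94% higher and 3.58% lower among all tested genes. Many of the lists lie near these shares. Egr2 went from 0.402 and 0.426 to 2.84 and 2.80 CPM (log2 2.75 ± 0.33, adjusted p = 0.000136), Fosb from 1.93 and 2.93 to 9.18 and 9.34 (1.91 ± 0.20) and Fos from 5.85 and 7.38 to 14.9 and 16.5 (1.24 ± 0.23, adjusted p = 0.00295). Each had both stressed libraries above both isosmotic ones. The others that rose were Klf4, Arc (0.90), Zfp36l1 (0.83), Nr4a2 (0.66) and Myc (0.56). Btg2, an antiproliferative gene (-1.04 ± 0.17), Zfp36, which encodes an RNA decay factor (-0.86 ± 0.14), Ier2 (-0.55 ± 0.16) and Klf10 (-0.48 ± 0.10) fell. The call of Ier2 was lost with another scaling or a stricter filter. Egr1 (172 and 196 CPM, then 198 and 197), Jun (79.4 and 77.97, then 71.7 and 69.0) and Junb (171 and 145, then 130.0 and 137) were not called.

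Genes of MAPK feedback, phosphatases and adaptors that damp the kinase cascades, were likewise divided, with 3 of 19 higher, 2 lower and a median of -0.04. Dusp10, a phosphatase for p38 and JNK (0.53 ± 0.12), and Lrig1 and Errfi1, inhibitors of the EGF receptor (0.43 and 0.38), rose. Dusp2, a nuclear MAPK phosphatase, went from 17.0 and 19.6 to 5.14 and 6.50 CPM, 3.15-fold lower (-1.66 ± 0.25, adjusted p = 0.000828), and Spred3 fell (-0.93 ± 0.17). Dusp1 stood at 71.3 and 70.9 CPM before and 74.1 and 73.3 after stress, and Dusp5 at 67.7 and 72.8 and then 53.8 and 55.2 (adjusted p = 0.133).

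Of 33 tested NF-kB feedback and inflammatory genes, 7 rose and none fell (3 had an unadjusted p under 0.05 in that direction, and DESeq2 called 3), with a median of 0.20. Il6 had 0 and 0 isosmotic and 61 and 50 stressed counts, at least 21.5-fold higher, and Tnf 0 and 0 and then 21 and 10, at least 6.02-fold higher. Both cytokine genes were thus silent before stress and low after it. The neutrophil chemokine gene Cxcl2 went from 0.804 and 0.575 to 10.0 and 7.995 CPM, 13.3-fold higher (log2 3.73 ± 0.47, adjusted p = 0.000494). The monocyte chemokine gene Ccl2 went from 25.5 and 25.5 to 47.5 and 47.7 CPM (0.90 ± 0.11), and the NF-kB inhibitor gene Nfkbia from 49.4 and 44.1 to 83.9 and 86.1 (0.86 ± 0.14). Tnfaip3, which encodes the feedback inhibitor A20 (0.60 ± 0.10), and Cxcl5 (0.63 ± 0.17) rose too, while Cxcl1 was close to the threshold (1.39 ± 0.39, adjusted p = 0.0503). Before stress, 12 of the 33 were lower with SFN than with DMSO and 1 was higher (1.76% and 1.09% of all tested genes). The isosmotic SFN libraries enter both this difference and the stress effect. With DMSO, the list's median at 1 h was -0.44. Il6, Tnf and Cxcl2 had a log2 fold change above 0 with DMSO. Those of Tnfaip3 (-0.47), Ccl2 (-0.52), Nfkbia (-0.57) and Cxcl5 (-1.01) were below 0. At 6 h with SFN, Cxcl2 stood at 169 and 167 CPM, and Il6 at 10 and 0 counts.

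Among osmolyte and NFAT5 target genes, 6 of 18 tested rose and none fell (0 had an unadjusted p under 0.05 in that direction, and DESeq2 called 0), with a median of 0.16. Akr1b3, the aldose reductase that makes sorbitol, went from 297 and 306 to 431 and 427 CPM, 1.42-fold higher (log2 0.51 ± 0.09, adjusted p = 0.00318). Slc38a2, which encodes the neutral amino acid transporter SNAT2, went from 373 and 467 to 702 and 711 CPM (0.75 ± 0.12). Hspa1b, a gene of the inducible chaperone Hsp70, went from 239 and 243 to 424 and 427 CPM (0.82 ± 0.14). In these 3 genes the stressed pair exceeded both isosmotic libraries by well over the distance between the isosmotic libraries. Ptgs2, the inducible cyclooxygenase (0.63 ± 0.12), Sgk1 and Ccl2 were the other 3. With DMSO, the log2 fold change at 1 h was 0.20 for Akr1b3, 1.18 for Slc38a2, 2.03 for Hspa1b and 0.80 for Sgk1. It was -0.57 for Ptgs2 and -0.52 for Ccl2. The myo-inositol transporter gene Slc5a3 stood at 61.8 and 82.1 and then 79.5 and 76.3 CPM (0.11 ± 0.23, adjusted p = 0.861), so that the stressed values lay between the isosmotic ones. The taurine transporter gene Slc6a6 stood at 272 and 272 and then 273 and 272 CPM, and Nfat5 itself at 291 and 371 and then 347 and 334 (0.04 ± 0.22, adjusted p = 0.962). At 6 h with SFN the log2 fold change against the same isosmotic libraries was 4.11 for Akr1b3, 3.81 for Slc5a3, 1.95 for Slc6a6 and 1.74 for Nfat5, and 5.28 for Sgk1.

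Of 9 tested genes that the study named as osmoprotective, a list the authors chose on these samples and which is therefore not independent, 1 passed and rose, and the list's median was 0.49. The glucose transporter gene Slc2a1 stood at 119 and 108 CPM isosmotic and 133 and 126 stressed (log2 0.20 ± 0.09, adjusted p = 0.244). Each stressed library was above each isosmotic one by less than the test required. Of 23 tested transport genes of the kidney duct, 2 rose, among them Atp1b1, the sodium pump's beta subunit (0.41 ± 0.09), none fell (2 had an unadjusted p under 0.05 in that direction, and DESeq2 called 0), and the median was 0.01. These counts are near the shares over all tested genes, 5.94% higher and 3.58% lower.

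Other stress programs were little changed at 1 h. Of 23 heat shock chaperone genes, Hspa1b rose and the Hsp40 gene Dnajb1 fell (-0.36 ± 0.10, a call lost under other filters), with a median of 0.0020. Of 20 genes of the unfolded protein response, 1 rose, the ER co-chaperone gene Dnajb9 (0.53 ± 0.15). Of 28 ATF4 targets, Stc2, which encodes stanniocalcin 2 (0.96 ± 0.26), rose, while the glutathione-degrading Chac1 (-0.97 ± 0.19), the mTORC1 inhibitor Sesn2 (-0.88 ± 0.13) and the glutamine transporter Slc1a5 (-0.66 ± 0.16) fell, with a median of -0.03. Among 22 p53 and Gadd45 genes, Plk2 and the BH3-only gene Pmaip1 (0.62 ± 0.10) rose and Sesn2 fell, and Pmaip1 was also the member called among 15 Bcl2 family genes.

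In 22 genes of TGF-beta, BMP and Id signalling, 2 rose and 2 fell, with a median of -0.08. Id1, a BMP target that blocks basic helix-loop-helix factors, went from 167 and 146 to 44.8 and 43.4 CPM, 3.54-fold lower (log2 -1.83 ± 0.14, adjusted p = 2.5e-06). Both stressed libraries were below both isosmotic ones. The inhibitory Smad7 rose (0.76 ± 0.16), and the BMP antagonist gene Grem1 went from 4 and 4 to 47 and 63 counts. Of 19 genes of cholesterol synthesis and uptake, 2 fell, among them Insig1, a regulator of sterol sensing (-0.48 ± 0.11), and of 16 clock genes, Per1 fell (-0.57 ± 0.10).

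No member of 5 further lists was called by edgeR. These were 22 YAP and SRF targets (5 with an unadjusted p under 0.05, all higher, and 5 called by DESeq2), 15 genes of glucose uptake and glycolysis entry (2 and 1), 20 clustered histone genes (1 and 0), 22 genes of G2 and mitosis (1 and 0) and 23 of S phase and replication (3 and 1).

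**Figure D4:**
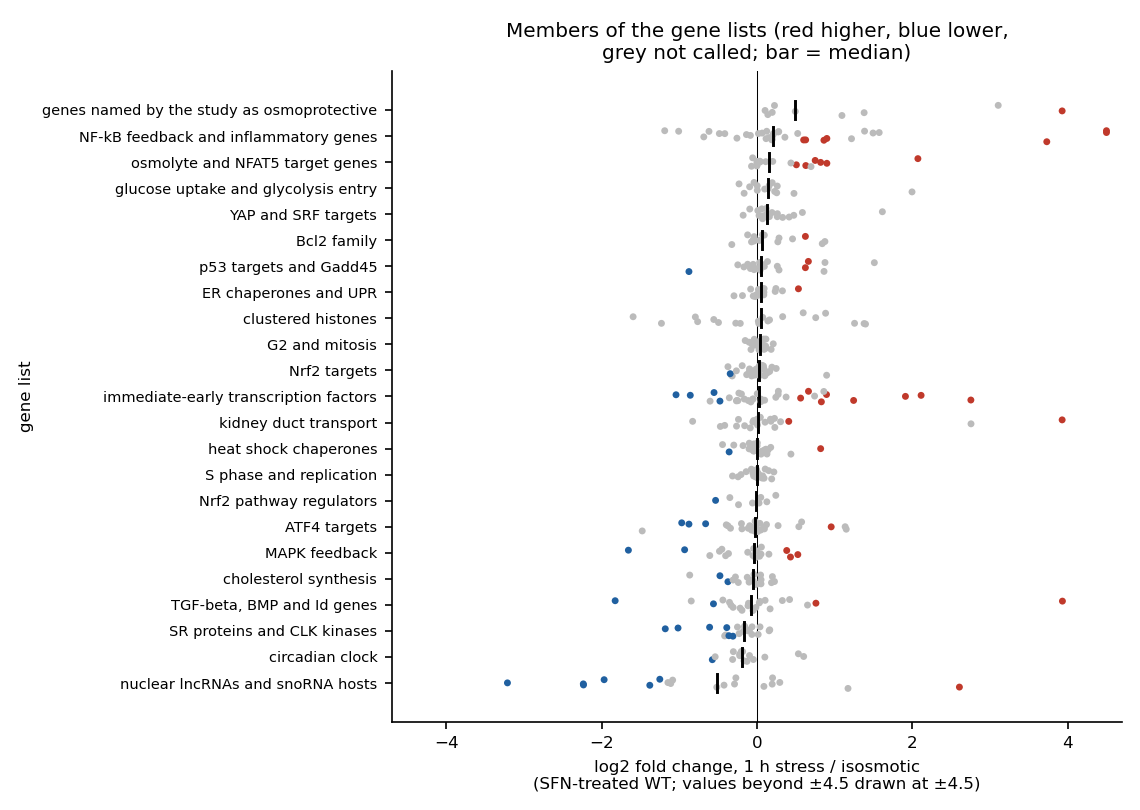
Log2 fold change at 1 h (x axis) of every tested member of 23 gene lists (y axis), red for members called higher, blue for lower and grey for not called, with a black bar at each list's median and 2 members (Il6 and Tnf, fitted from 0 isosmotic counts) drawn at the limit of 4.5. The nuclear lncRNA and snoRNA host list has the lowest median, -0.52.

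The Nrf2 program, which SFN had already raised, was almost flat during the hour of stress. Against DMSO in isosmotic WT cells, SFN had raised 13 of 33 tested Nrf2 targets (1.09% of all genes were called higher and 1.76% lower in this contrast), with a median log2 difference of 0.49. Examples were the cystine transporter gene Slc7a11 (log2 2.39), the haem oxygenase gene Hmox1 (2.03), the sulfiredoxin gene Srxn1 (1.33) and both subunits of glutamate cysteine ligase, Gclc (1.24) and Gclm (1.22). At 1 h of stress, 0 of these 33 targets rose (0 had an unadjusted p under 0.05 in that direction, and DESeq2 called 0), and the median was 0.03. Gclc alone fell, from 169 and 191 to 142 and 142 CPM (log2 -0.34 ± 0.09, adjusted p = 0.0337). Its stressed libraries lay below both isosmotic ones. Nfe2l2, the gene of Nrf2, stood at 66.9 and 78.003 and then 76.6 and 73.4 CPM (0.05 ± 0.10, adjusted p = 0.854), and Keap1 at 64.3 and 60.5 and then 57.4 and 62.5 (-0.06 ± 0.10). Of 8 pathway regulators, the small Maf gene Mafg, whose protein pairs with Nrf2 on DNA, fell from 169.7 and 157 to 115 and 111 CPM (-0.53 ± 0.11, adjusted p = 0.0053).

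Long noncoding RNAs were frequent among the falls. They made up 240 of the 682 lower genes with a known position (35.2%), 191 of 1135 higher genes (16.8%) and 14.2% of all tested genes. Neat1 (chr19:5824708-5845478), the scaffold of nuclear paraspeckles, went from 252 and 210.1 to 24.99 and 24.8 CPM, 9.27-fold lower (log2 -3.21 ± 0.40, adjusted p = 0.000633). Mir17hg, the host transcript of the miR-17 cluster, went from 13.5 and 17.5 to 0.887 and 1.67 CPM (-3.59 ± 0.43), and Dleu2, host of miR-15 and miR-16, from 10.97 and 12.1 to 1.15 and 1.17 (-3.31 ± 0.24). In all 3 both stressed libraries were far below both isosmotic ones. The miRNA host transcripts Mir100hg (-3.38 ± 0.25) and Mir22hg (-2.01 ± 0.17) were lower as well, as was the sperm membrane protein gene Spaca6 (-3.27 ± 0.17). Mir22hg and Spaca6 were picked after their values were seen. The other large falls were of transcripts known mainly by clone or model names, such as Gm37795 (-4.23 ± 0.28), and of the dicarboxylate transporter gene Slc13a2 (75 and 117 counts, then 13 and 2). At 6 h with SFN, Neat1 stood at 227 and 276 CPM and Mir17hg at 63.6 and 57.7. Between 6 h and 1 h, Neat1 differed by a log2 of 3.33 (adjusted p = 5.32e-05). Over the 699 lower genes, the median log2 fold change against the isosmotic libraries was -1.37 at 1 h and -0.06 at 6 h, and over the 1158 higher genes 4.42 and 4.32. The 1 h values chose these genes, and both times are set against the same isosmotic libraries, so these medians are not independent.

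In a list of 19 tested nuclear lncRNAs and snoRNA hosts, 6 fell, 1 rose and the median was -0.52. snoRNA hosts carry the small RNAs that guide ribosomal RNA modification in their introns, and their spliced transcripts are short-lived. Snhg4 went from 37.9 and 41.9 to 8.95 and 7.995 CPM (-2.24 ± 0.18, adjusted p = 4.42e-06) and Snhg15 from 30.4 and 23.0 to 5.87 and 5.47 (-2.23 ± 0.50, adjusted p = 0.0171). Both were clearly lower in each stressed library. Snhg16 (-1.97), Snhg17 (-1.38) and Snhg5 (-1.25) fell as well, Malat1 did not pass (-0.27 ± 0.38), and Xist was the member that rose, from 3 and 4 to 18 and 20 counts. Of 22 genes of SR proteins and CLK kinases, which set splice site choice, 6 fell and 0 rose (0 with an unadjusted p under 0.05 in that direction, 0 by DESeq2), with a median of -0.17. Clk4 went from 38.5 and 44.0 to 18.03 and 18.4 CPM (-1.18 ± 0.15, adjusted p = 0.000208) and Clk1 from 65.7 and 68.1 to 31.9 and 34.2 (-1.02 ± 0.11). The stressed values of both kinases were about equal and below the isosmotic ones. Clk3 (-0.61), Srpk1 (-0.39), Luc7l3 (-0.36) and Srsf2 (-0.31) also fell, and their calls were lost with a minimum of 10 counts in every library.

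The positions of higher and lower genes are given as shares, without a test. Of 682 lower genes with a position, 125 (18.3%) started inside an expressed gene, against 2.56% of the higher and 5.38% of all tested genes. For lower genes between 0.1 and 1 CPM the share was 64 of 120 (53.3%), against 14.1% of all tested genes at that level. Within 10 kb past the end of an expressed gene lay 257 of 1135 higher genes (22.6%), 129 of 682 lower genes (18.9%) and 3173 of all 19197 (16.5%).

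The next comparison asked whether SFN changed the stress effect. The effect differed between SFN and DMSO for 109 genes in WT cells by the test of the difference itself, more positive with SFN for 95 (0.487% of those tested) and more negative for 14 (0.0718%). A fit of only the 12 WT libraries gave 421 and 193, and the test without any 1 of the 8 libraries gave 46 to 59 and 0 to 7. Both sets already differed between the treatments before stress. All 95 genes of the first set had a lower fitted level with SFN than with DMSO in isosmotic cells, and for 91 of them that difference was itself called. Their median log2 fold change at 1 h was 0.27 with SFN and -0.93 with DMSO, the median isosmotic difference of SFN from DMSO was -1.11, and the difference at 1 h was 0.10. All 14 genes of the second set were called higher with SFN in isosmotic cells, by a median of 1.13, and differed by a median of -0.28 at 1 h. Of the 95, 30 rose and 8 fell at 1 h with SFN, and of the 14, 1 rose and 8 fell. The isosmotic SFN libraries enter both the isosmotic and the stress difference, so these values are not independent of each other.

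Many of these were immediate-early and feedback genes, 14 of the 34 immediate-early genes and 7 of the 19 MAPK feedback genes. Arc, an immediate-early gene best known from neurons, stood with DMSO at 64.7 and 59.4 CPM isosmotic and 17.7 and 19.5 at 1 h, and with SFN at 15.02 and 12.8 and then 25.7 and 26.0. The DMSO isosmotic libraries were thus the highest, and the difference of the stress effects was 2.63 ± 0.15 (log2, adjusted p = 1.26e-06). Junb, an AP-1 subunit gene, stood at 517 and 534 and then 118 and 123 CPM with DMSO and at 171 and 145 and then 130.0 and 137 with SFN (difference 1.88 ± 0.19, adjusted p = 0.000316). At 1 h the 4 libraries of Junb were close together, and only the DMSO isosmotic pair stood apart. Dusp2 stood at 76.9 and 83.9 and then 3.78 and 6.36 CPM with DMSO, and its 1 h values with DMSO and with SFN overlapped (difference 2.34 ± 0.35). Fosb with DMSO was 12.8 and 10.2 CPM isosmotic and 12.5 and 11.3 at 1 h, so its level before stress in SFN cells was the low one (difference 1.86 ± 0.27).

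The cytokine gene Lif stood at 172 and 166 CPM and then 43.7 and 50.4 with DMSO and at 52.6 and 49.1 and then 54.0 and 56.4 with SFN (difference 1.96 ± 0.19). Cldn4, a claudin of tight junctions in the collecting duct, stood at 345 and 385 and then 111 and 118 CPM with DMSO and at 84.5 and 81.7 and then 117 and 117 with SFN (difference 2.16 ± 0.18). In both genes the 1 h values of the treatments nearly met from different starting levels. Nfkbia (1.43 ± 0.19), Egr2 (2.39 ± 0.44), Dusp5 (1.74 ± 0.20), the vasodilator peptide gene Adm (2.94 ± 0.40), the interleukin 33 receptor gene Il1rl1 (2.28 ± 0.27), the zinc exporter gene Slc30a1 (2.02 ± 0.26), the prostaglandin receptor gene Ptger4 (1.99 ± 0.23) and Plk2 (0.96 ± 0.13) had the same sign of difference. Rpgrip1 had 27 and 25 counts and then 118 and 88 with DMSO, and 2 and 3 and then 108 and 111 with SFN.

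The Hsp70 gene Hspa1b was in the opposite set. It stood at 81.9 and 81.7 CPM and then 332 and 336 with DMSO, and at 239 and 243 and then 424 and 427 with SFN, with a difference of -1.21 ± 0.20 (log2, adjusted p = 0.00883). With SFN it began higher, ended higher and rose by a smaller factor. Its near-identical neighbour Hspa1a had a difference of -1.52 ± 0.24, and reads of the pair may be divided between them by the counting. Gbp3, an interferon-inducible GTPase gene, stood at 28.8 and 30.6 and then 26.8 and 24.2 CPM with DMSO and at 50.1 and 54.2 and then 18.7 and 19.8 with SFN (-1.22 ± 0.25). The developmental transcription factor genes Shox2 (-1.63 ± 0.34), Pax9 (-1.38 ± 0.26) and Otx1 (-1.31 ± 0.25), and Gm43597 (-2.24 ± 0.39), Zfp354a (-1.68 ± 0.27), Ccdc117 (-0.85 ± 0.14) and Zfc3h1 (-0.81 ± 0.17) completed the 10 largest differences of this sign.

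**Figure D5:**
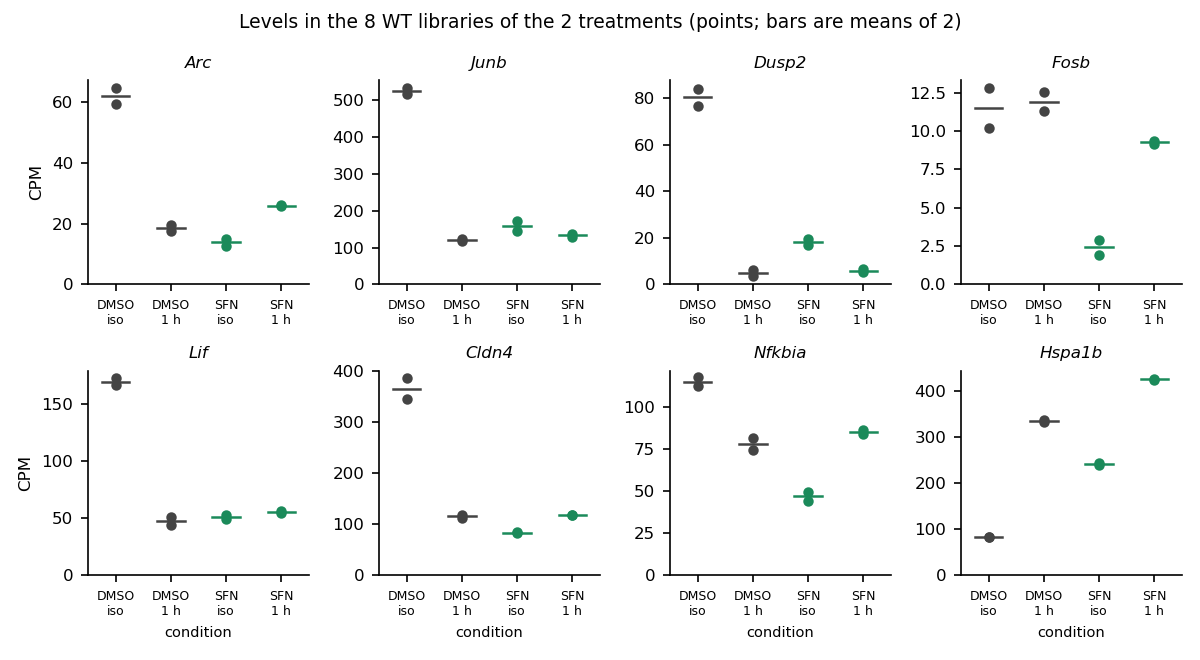
CPM (y axis, from 0) of 8 genes in the 8 WT libraries, isosmotic and at 1 h, with DMSO (dark) or SFN (green), 1 point per library and bars at the mean of 2. In Arc, Junb, Dusp2, Lif and Cldn4 the isosmotic DMSO pair stands well above the other libraries, and in Hspa1b it is the lowest.

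Across the 9093 genes of at least 10 CPM, the stress effects with SFN and with DMSO had a Pearson r of 0.503 and a Spearman coefficient of 0.288. This is a description over genes, which are not independent, and no library is shared between the 2 effects. The median log2 fold change of the 1158 higher genes was 4.42 with SFN, which chose them, and 3.95 with DMSO, and that of the 699 lower genes was -1.37 and -0.95.

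Promoters are shown for 3 genes of the set with a more positive effect under SFN, chosen after their values were seen because each holds a motif of a stimulus-responsive factor. They are the 250 bases before the RefSeq start (GRCm38.p6), 5′ to 3′ on the gene's strand, with motif matches in capitals. Plk2 (chr13:110394794-110395043, plus strand) holds TGACGTCA, the cyclic AMP response element, from -62 to -55. Dusp5 (chr19:53528895-53529144, plus strand) holds a pair of abutting CArG boxes, the site of serum response factor, from -82 to -63, and on its minus strand a TGACNNNGC, the core letters of the antioxidant response element, from -111 to -103. Cldn4 (chr5:134946935-134947184, minus strand) holds TGANTCA, the AP-1 letters, at -240 and at -158.
Plk2: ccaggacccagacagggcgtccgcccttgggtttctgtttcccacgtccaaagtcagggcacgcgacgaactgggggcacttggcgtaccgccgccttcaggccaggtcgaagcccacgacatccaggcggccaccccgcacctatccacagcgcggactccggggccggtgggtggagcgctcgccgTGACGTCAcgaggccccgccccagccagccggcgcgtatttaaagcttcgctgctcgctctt
Dusp5: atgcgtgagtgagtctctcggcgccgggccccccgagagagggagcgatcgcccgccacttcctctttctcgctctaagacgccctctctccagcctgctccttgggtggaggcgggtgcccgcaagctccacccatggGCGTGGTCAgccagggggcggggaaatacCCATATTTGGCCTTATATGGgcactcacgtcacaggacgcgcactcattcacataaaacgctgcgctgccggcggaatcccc
Cldn4: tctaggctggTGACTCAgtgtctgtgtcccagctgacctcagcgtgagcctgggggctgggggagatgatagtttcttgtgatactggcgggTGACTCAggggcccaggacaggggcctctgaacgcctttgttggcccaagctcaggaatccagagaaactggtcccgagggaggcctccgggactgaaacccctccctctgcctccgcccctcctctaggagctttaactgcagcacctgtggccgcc

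All motifs were searched on both strands of these 250 bases. A promoter was matched for 702 of 1158 higher, 369 of 699 lower and 12378 of 19509 tested genes. TGGAAA, the NFAT5 core, was in 15.95% of higher, 14.1% of lower and 15.35% of all tested promoters. GAANNTTC, the letters of a heat shock element, was in 6.84%, 4.34% and 5.06%, and TGACNNNGC in 9.40%, 14.9% and 11.8%. In higher, lower and all tested promoters, TGANTCA was in 5.56%, 4.34% and 4.85%. TGACGTCA was in 1.99%, 2.44% and 2.55%, and the CArG box in 1.28%, 1.355% and 1.22%. Among 67 of the 95 genes with a more positive effect under SFN, TGANTCA was in 7 (10.45%, against 4.85% of all), TGACGTCA in 5 (7.46% against 2.55%), TGACNNNGC in 12 (17.9%) and the CArG box in 3 (4.48% against 1.22%). In the same 67, TGGAAA was in 7 (10.45% against 15.35%) and GAANNTTC in 4 (5.97% against 5.06%). TGANTCA may overlap TGACNNNGC. A match is not a binding site, and no test was made on these shares.

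In Nrf2-/- cells the targeted gene Nfe2l2 stood at 11.1 and 11.6 CPM isosmotic and 11.02 and 11.1 at 1 h, against 66.9 and 78.003 in isosmotic WT cells, so that its RNA was reduced but not absent. The stress effect under SFN differed between WT and Nrf2-/- cells for 24 genes. It was more positive in WT for 12 and more negative for 12 (0.0615% of genes each). Genotype and line cannot be told apart in these differences. These counts depended on the libraries in the fit, and the cause was not tested. A fit of only the conditions compared called 0 and 0. Without either library of the stressed Nrf2-/- pair the counts were far larger. That group then held 1 library and had no spread of its own. Transcripts under 1 kb were higher in replicate 1 than in replicate 2 of this pair by a median log2 of 1.02. All 12 genes of the first set rose in WT cells with SFN, against 5.94% of all tested genes. Of them, 6 also had a more positive effect with SFN than with DMSO, against 0.487% of all. These contrasts share the WT libraries with SFN, so the overlap was partly fixed by the selection and adds no support.

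Klf4 stood at 34.4 and 37.2 CPM and then 60.8 and 41.2 in Nrf2-/- cells, a difference of 1.60 ± 0.21 (WT minus Nrf2-/-, log2, adjusted p = 0.00585). Both Nrf2-/- isosmotic libraries were above the stressed WT ones. Rnd3 stood at 43.6 and 44.0 and then 54.6 and 45.6 CPM, close to the isosmotic WT level throughout (difference 1.09 ± 0.15, adjusted p = 0.008). Fosb stood at 14.3 and 12.5 and then 16.1 and 12.1 CPM (1.84 ± 0.27). Others of the set were Nfkbia (1.11 ± 0.19), Dusp10 (0.96 ± 0.17), Il1rl1 (1.95 ± 0.29), the Wnt regulator gene Frat2 (2.74 ± 0.30), Srcin1 (3.80 ± 0.48) and Ndrg4 (1.76 ± 0.29), besides Rpgrip1. Of the 12 genes of the opposite set, 9 had at most 3 counts in each isosmotic Nrf2-/- library, among them the collagen gene Col4a2 (0 and 0 counts, then 4 and 7) and the matrix metalloproteinase gene Mmp14 (0 and 0, then 9 and 12). The remaining 3 were Angptl4, a lipoprotein lipase inhibitor gene (-2.49 ± 0.40), the G protein subunit gene Gnb4 (-1.85 ± 0.31) and Cul9 (-1.69 ± 0.28). The chemokine genes Ccl2 and Cxcl5, which rose in WT cells with SFN, had no count in any of the 4 Nrf2-/- libraries, so their stress effects could not be compared.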

How the data were processed

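RNA was extracted by the authors with TRIzol and sequenced on the Illumina NovaSeq platform. Per the study's methods, reads were aligned to mm10, sorted with SAMtools and counted per gene with featureCounts. The labels name Bowtie2 as the aligner and the methods Hisat2. Versions, gene annotation and strand setting are not given in the sources used here, and reads of overlapping genes and paralogs may be divided or lost. The deposited values were raw read counts per gene symbol, 1 library at a time, and 5 lines without a gene name, in libraries outside the main comparison, were left out. Groups were taken from the genotype and treatment labels and replicate numbers from the titles. The isosmotic SFN libraries titled replicates 1 and 2 are numbered 2 and 3 in the names of their deposited tables, so their replicate numbers are uncertain. The study's methods state 2 biological replicates, and the labels do not say that these were separate cultures, so p-values measure the spread between these samples.

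Counts of all 16 libraries (34484296 to 50774875 per library) entered 1 fit with a coefficient for each of 8 conditions in edgeR 4.0.16 (R 4.3.3), with TMM scaling, edgeR's filter on low counts, the robust quasi-likelihood F-test and a Benjamini-Hochberg adjusted p under 0.05. Differences of stress effects were tested as contrasts of the same fit. The standard error was the log2 fold change divided by the root of F. In the 4 main libraries, 58.0% to 65.3% of the values from 1 to 10 were even. A gene with 0 counts in both isosmotic libraries was given a lower bound on its fold change from 3 counts in each. One with counts there, but at most 3 in each, was given a ratio with an exact 95% interval from the counts. The interval takes each count as independent, and neither it nor the bound takes the share of even values into account. No library pair differed by less than sampling noise (median chi-square ratio 3.23 to 33.0). With 2 libraries against 2, an exact permutation test cannot go below a two-sided p of 0.333, so no such test was used.

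The members of the comparison and the gene lists were chosen with earlier results of these data known. Named genes were the 15 largest rises and falls among called genes whose groups did not overlap and whose mean was at least 50 counts, the 10 largest called differences of effect in each direction under the same count limit, members of the lists, Nfat5, Nfe2l2, Keap1, and the 5 called genes of highest CPM at 1 h. Positions came from GENCODE M21 by symbol (53292 of 55367 symbols, and 379 more by an older or newer symbol), and promoters from RefSeq GRCm38.p6. Alternatives were DESeq2 1.42.0, RLE factors, library totals, no filter, a minimum of 10 counts per library, fits of the compared conditions or of the 12 WT libraries alone, a block for the replicate number, a 2-fold minimum, and leaving out each library. The scripts were tested on simulated data. Values of a few members of the gene lists are not reported here. The 6 h DMSO libraries entered only the shared fit and are not described.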

Additional observations from a re-analysis of the deposited data

Results flagged for a closer look

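The results below passed a test of the difference between stress effects (edgeR's quasi-likelihood test with Benjamini-Hochberg adjustment), and no explanation for them was tested. Between SFN and DMSO in WT cells, 95 genes had a more positive and 14 a more negative effect with SFN. The log2 differences (SFN minus DMSO) of the immediate-early and feedback genes were 2.63 for Arc, 2.39 for Egr2, 2.34 for Dusp2, 1.88 for Junb, 1.86 for Fosb, 1.74 for Dusp5, 1.43 for Nfkbia and 0.96 for Plk2. Those of signalling, transport and junction genes were 2.94 for Adm, 2.28 for Il1rl1, 2.16 for Cldn4, 2.02 for Slc30a1, 1.99 for Ptger4 and 1.96 for Lif.

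In the negative direction, the log2 difference was -2.24 for Gm43597, -1.68 for Zfp354a, -1.63 for Shox2, -1.52 for Hspa1a, -1.38 for Pax9, -1.31 for Otx1, -1.22 for Gbp3, -1.21 for Hspa1b, -0.85 for Ccdc117 and -0.81 for Zfc3h1.

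Between WT and Nrf2-/- cells with SFN, 12 genes had a more positive and 12 a more negative effect in WT. A fit of only the conditions compared called 0 and 0, and genotype and line cannot be told apart. The log2 differences (WT minus Nrf2-/-) were 3.80 for Srcin1, 2.74 for Frat2, 1.95 for Il1rl1, 1.84 for Fosb, 1.76 for Ndrg4, 1.60 for Klf4, 1.11 for Nfkbia, 1.09 for Rnd3 and 0.96 for Dusp10. They were -2.49 for Angptl4, -1.85 for Gnb4 and -1.69 for Cul9.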

How the results depend on the processing

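Counts of 1158 higher and 699 lower genes moved by more than 1.5 times only where the filter, the libraries in the fit or the size of change was altered. With at least 10 counts in every library they were 230 and 305, and with only the 12 WT libraries 2218 and 1310. Only the conditions compared gave 1190 lower genes, a 2-fold minimum 437 lower genes, and leaving out 1 library 438 to 617 higher and 285 to 412 lower. DESeq2, RLE factors, total counts and no filter gave 1100 to 1529 higher and 681 to 912 lower.

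For the difference between SFN and DMSO (95 and 14), DESeq2 gave 191 and 79, no filter 189 and 68, only the conditions compared 280 and 138, only the 12 WT libraries 421 and 193, at least 10 counts in every library 9 negative, a 2-fold minimum 61 positive, and leaving out 1 library 46 to 59 and 0 to 7. The 0 came without DMSO 1 h replicate 1, with 490 negative genes at an unadjusted p under 0.05. For WT against Nrf2-/- (12 and 12), DESeq2 gave 74 and 53, no filter 76 and 84, at least 10 counts in every library 1 negative, and only the conditions compared 0 and 0 by edgeR (425 and 447 at an unadjusted p under 0.05). Leaving out 1 library gave 1 to 1149 and 2 to 952. The causes of these changes were not tested.

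A fit with the replicate number as a replicate block gave 996 and 626 for stress, 75 and 8 for SFN against DMSO and 9 and 9 for the genotypes. The labels do not say that a number marks a shared batch, and the deviations of same-numbered libraries showed no common pairing. Their correlation was -0.0289 for isosmotic and stressed SFN libraries of WT cells, 0.612 for isosmotic WT and stressed Nrf2-/- libraries with SFN, -0.379 for isosmotic SFN and DMSO libraries, and -0.442 to 0.612 over all 15 pairs of conditions. Under it Ctnna1, Cxcl5, Dnajb1, Dnajb9 and Tnf lost the stress call, Gbp3, Shox2 and Zfc3h1 the SFN and DMSO call, and Dusp10, Nfkbia and Gnb4 the genotype call.

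Of 88 called genes described, 38 lost the call without at least 1 library and 11 under another setting (the 5 above, Clk3, Gclc, Ier2, Luc7l3, Srpk1 and Srsf2), and no sign changed. Fn1 missed the threshold without either stressed library (adjusted p = 0.0700 and 0.0629) or isosmotic replicate 1 (0.0925). For the difference between SFN and DMSO, 3 of 24 called genes followed lost the call under at least 1 other setting. Between the genotypes, all 12 called genes followed did so, and no sign changed. These other settings do not include leaving out 1 library. Leaving out 1 library took the call from more of the 24 genes than these settings did, and from most of the 12. Some genes that were not called changed sign. Leaving out 1 library gave -0.076 to 0.33 for Slc5a3, -0.12 to 0.23 for Nfat5 and -0.056 to 0.16 for Nfe2l2 (each lowest without isosmotic replicate 1), -0.12 to 0.0028 for Keap1 and -0.0036 to 0.0018 for Slc6a6. Slc6a6 was also above 0 under DESeq2 and RLE factors (0.012 each), at least 10 counts (0.034), only the conditions compared (0.0014) and only the 12 WT libraries (0.027). Depth limits genes under 1 CPM, where few counts stand behind a value.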
